A study of Homo sapiens with 4 samples.

Results

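The transcripts described here are 34 genes of 2 linked groups, 25 targets of the tumour suppressor p53 and 9 genes that control passage through G1, out of 32973 genes listed for 4 RNA sequencing libraries. They were chosen by name, as the rows of the expression table that carry one of the 34 symbols, and all 34 rows were found. T24T and UMUC3, from which the libraries came, are human lines of bladder cancer. Cells of either line carried, by stable transfection, an overexpression plasmid for the circular RNA BCUC-1 (hsa_circ_0001361) or the vector. The 4 groups were T24T BCUC-1, T24T vector, UMUC3 BCUC-1 and UMUC3 vector, with 1 library each. All cells were grown in the same serum-supplemented medium. The labels do not say whether a transfected line was 1 clone or a pool, and the level of the circle itself was not measured here. The stated purpose was to find genes downstream of BCUC-1. With 1 library per group, BCUC-1 and vector within a line are compared as single libraries and not as conditions, and the comparison of the lines rests on 2 libraries per line that differ in plasmid.

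The depths were 22730112 to 26497894 assigned reads per library. Levels are given as RPKM, reads scaled to exonic length and to the assigned reads of the library, from which whole read counts were recovered. Of 13 epithelial and urothelial markers, 4 were above the level set for testing. The lines differed in 3 of them, and PPARG overlapped between the lines. The keratin KRT8 had 146 and 133 RPKM in the T24T libraries and 13.22 and 12.998 RPKM in the UMUC3 libraries (BCUC-1 first in each line), and KRT7 and KRT18 were 8.67 and 2.07 times higher in T24T. The adhesion genes CDH1 and EPCAM were at or near 0 in all 4 libraries. The mesenchymal filament gene VIM had 87.03 and 82.9 RPKM in T24T and 267 and 234 RPKM in UMUC3, 2.95 times higher in UMUC3. The other 2 mesenchymal markers, CDH2 and FN1, were higher in T24T. CDH2 had 6.64 and 6.64 RPKM in T24T and 5.31 and 5.50 RPKM in UMUC3. FN1 had 1.58 and 1.77 RPKM in T24T and 0.999 and 0.822 RPKM in UMUC3. The part of these differences in those described below was not tested. The blood, endothelial and liver markers summed to at most 0.0844 RPKM in a library.

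The tumour suppressor p53 is a transcription factor that DNA damage and other stresses stabilise. It binds a response element made of a pair of ten-base repeats and raises genes for cell cycle arrest, cell death, DNA repair and metabolism, among them MDM2, the ubiquitin ligase that degrades p53. In G1, cyclins D1 to D3 activate the kinases CDK4 and CDK6, which phosphorylate the retinoblastoma protein. The Cip/Kip and INK4 inhibitors restrain these kinases, and p21, the product of CDKN1A, links both groups because it is a p53 target and a CDK inhibitor. Loss of these controls is common in bladder cancer.

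Promoters of 27 of the 34 genes were available, as RefSeq windows of 300 bases on GRCh38.p14 from 250 bases before to 50 bases after each annotated start. They were searched for the p53 response element. Of the 43 windows of these genes, 6 held an exact ten-base repeat (13.95%), against 6.632% of all 35116 windows. An exact pair of repeats with a spacer of at most 13 bases was found in 1 window, that of DDB2, against 0.02848% of all windows. With 1 mismatch allowed in each repeat, 7 windows (16.28%) of 5 genes held a pair, against 5.251% of all windows. The 2 such windows of MDM2 overlap and hold the same pair, as do those of CCNG1. The windows below belong to 4 p53 targets that were at least 2-fold higher in T24T than in UMUC3, and to DDB2, which holds the exact pair. Capitals mark the repeats. In MDM2 the pair allows 1 mismatch in each repeat and begins 101 bases upstream of the start, in FDXR and PLK2 a single exact repeat begins 11 and 132 bases upstream, and GDF15 had no match in this window. Another 2 windows of MDM2 and 1 each of FDXR and DDB2 had no match and are not shown. A match is a description of the letters, not a measured binding site.
MDM2 promoter, chr12:68808774-68809073, plus strand: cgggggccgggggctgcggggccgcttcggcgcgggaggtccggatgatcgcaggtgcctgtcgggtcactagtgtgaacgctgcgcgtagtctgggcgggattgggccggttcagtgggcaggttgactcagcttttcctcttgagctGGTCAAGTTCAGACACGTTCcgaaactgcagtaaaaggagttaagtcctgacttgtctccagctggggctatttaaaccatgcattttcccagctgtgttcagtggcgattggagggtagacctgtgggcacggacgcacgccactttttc
FDXR promoter, chr17:74872945-74873244, minus strand: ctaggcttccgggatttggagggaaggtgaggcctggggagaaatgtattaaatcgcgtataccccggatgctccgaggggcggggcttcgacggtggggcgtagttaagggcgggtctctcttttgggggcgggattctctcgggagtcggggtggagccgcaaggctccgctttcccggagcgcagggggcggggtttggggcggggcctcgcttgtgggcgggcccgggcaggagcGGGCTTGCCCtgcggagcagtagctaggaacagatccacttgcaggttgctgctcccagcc
PLK2 promoter, chr5:58460037-58460336, minus strand: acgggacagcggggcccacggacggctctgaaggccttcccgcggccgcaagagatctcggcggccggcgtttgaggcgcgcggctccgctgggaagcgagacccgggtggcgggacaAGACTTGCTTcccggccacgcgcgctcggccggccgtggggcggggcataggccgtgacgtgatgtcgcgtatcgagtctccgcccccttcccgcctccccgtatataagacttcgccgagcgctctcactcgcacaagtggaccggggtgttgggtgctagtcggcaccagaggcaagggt
GDF15 promoter, chr19:18385908-18386207, plus strand: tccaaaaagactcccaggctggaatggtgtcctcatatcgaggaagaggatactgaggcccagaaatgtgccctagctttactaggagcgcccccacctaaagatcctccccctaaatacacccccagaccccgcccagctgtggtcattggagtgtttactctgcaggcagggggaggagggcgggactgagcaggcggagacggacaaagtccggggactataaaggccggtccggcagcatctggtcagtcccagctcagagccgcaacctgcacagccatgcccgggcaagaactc
DDB2 promoter, chr11:47214724-47215023, plus strand: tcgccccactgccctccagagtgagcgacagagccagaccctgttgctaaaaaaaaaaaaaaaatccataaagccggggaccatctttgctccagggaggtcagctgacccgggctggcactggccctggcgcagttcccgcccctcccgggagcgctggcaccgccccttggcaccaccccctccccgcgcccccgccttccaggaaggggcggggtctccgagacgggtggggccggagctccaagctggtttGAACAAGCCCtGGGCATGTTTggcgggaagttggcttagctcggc

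The largest differences in these genes lay between the lines. Over the whole table, limma on log2(RPKM + 1) with the plasmid as a covariate was fitted to the 15415 genes that reached 1 RPKM in at least 2 libraries, and 70.4% of them passed a Benjamini-Hochberg adjusted p of 0.05. Of the 34 genes, 30 passed this floor, and 23 of the 30 were called, 15 higher in T24T and 8 higher in UMUC3. The background was 40.8% higher in T24T and 29.6% higher in UMUC3, so a call alone says little about these genes. With equal medians 21 of the 30 were called, 12 higher in T24T and 9 in UMUC3, and calls higher in T24T made up 48.7% of all calls, against 58.0% before. A rule added after the values were seen also required a difference of at least 2-fold on log2(RPKM + 1). By it 9 of the 30 were called, 6 higher in T24T and 3 higher in UMUC3, against a background of 17.9% (10.2% and 7.73%). GDF15, TP53INP1, BTG2 and CCND2 passed the floor through 1 line only, so they had to differ, and their calls carry no weight. All of these but BTG2 are among the 9, so the 9 cannot be set against the background as an excess. Among the 26 tested genes that remain without them, 12 were called higher in T24T and 7 higher in UMUC3, with no fold required. The other 4 genes, BBC3, PHLDA3, SPATA18 and CDKN1C, stayed below the floor. The median difference was 0.21 on the log2 scale over the 30 genes and 0.10 over all genes tested, and over all genes it was -0.015 once libraries had equal medians. By group, 14 of 22 tested p53 targets were higher in T24T (63.6%) and 3 in UMUC3 (13.6%), with 40.8% and 29.6% over all genes tested. The 14 include BTG2, TP53INP1 and GDF15, so this share cannot be set against the background as an excess. Without these, 11 of 19 were higher in T24T and 3 in UMUC3, and the background was not recounted without genes of that kind. The T24T calls of BAX, CCNG1 and TP53I3 were lost with equal medians, where 5276 of all 15415 genes were called higher in T24T and 5551 in UMUC3. Of 8 tested G1 genes, 1 was higher in T24T and 5 in UMUC3, with CCND2 among the 5. In 26 of the 30 genes both libraries of a line lay outside the range of the other line, against 85.7% of all genes tested. With 1 residual degree of freedom, the test drew most of its spread from the other genes. In bulk RNA, fewer cells expressing a gene and less RNA per cell cannot be told apart.

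**Figure D1:**
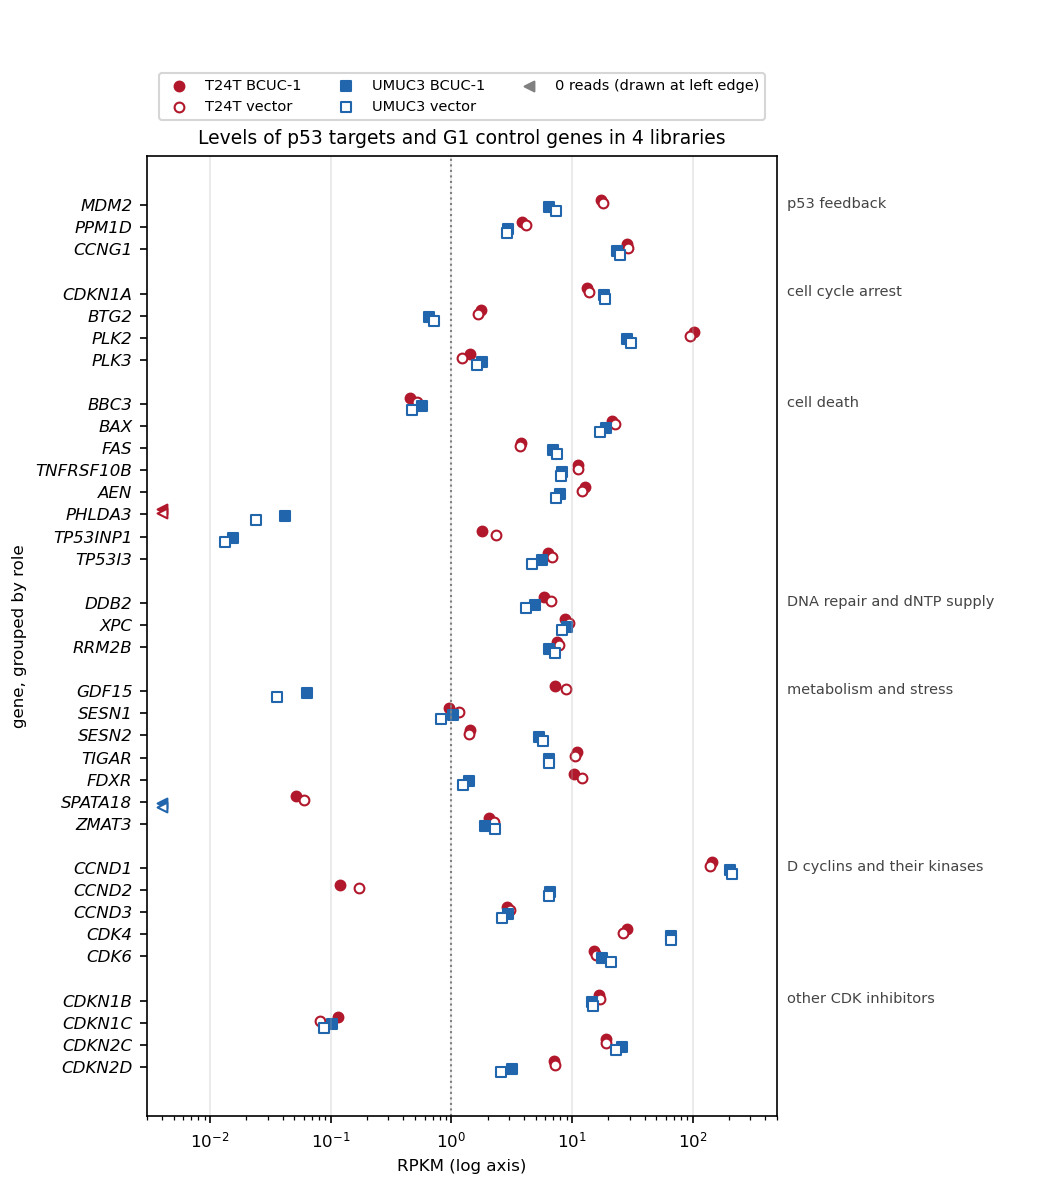
RPKM on a log axis of each of the 34 genes in the 4 libraries, grouped by role (circles T24T, squares UMUC3, filled BCUC-1, open vector, triangles at the left edge 0 reads; the dotted line marks 1 RPKM). The BCUC-1 and vector symbols of a line lie close together, while GDF15, TP53INP1 and CCND2 differ between the lines by more than 1 step of the axis.

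The genes that feed back on p53 were all higher in T24T. MDM2 had 17.4 RPKM in T24T BCUC-1 and 18.1 in T24T vector, against 6.44 in UMUC3 BCUC-1 and 7.33 in UMUC3 vector. Both T24T libraries lay above both UMUC3 libraries, at 2.58 times the mean level, with a log2 difference of 1.251 (SE 0.080, limma adjusted p 2.34e-05). PPM1D, the phosphatase that dephosphorylates p53 and its kinases, had 3.88 and 4.16 RPKM in T24T and 2.93 and 2.90 RPKM in UMUC3, a log2 difference of 0.36 (limma adjusted p 0.0150), which was not called without T24T BCUC-1 (limma adjusted p 0.0590) or without T24T vector (0.0952). CCNG1, cyclin G1, had 28.5 and 29.3 RPKM in T24T and 23.6 and 25.2 RPKM in UMUC3. Its difference of 0.23 passed (limma adjusted p 0.0185) but not with equal medians (0.094, limma adjusted p 0.319).

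Genes of cell cycle arrest did not share a direction. PLK2, a polo-like kinase, was the most abundant p53 target, with 102 RPKM in T24T BCUC-1 and 95.9 in T24T vector, against 28.6 in UMUC3 BCUC-1 and 31.0 in UMUC3 vector. The T24T mean was 3.32 times the UMUC3 mean, a log2 difference of 1.70 (SE 0.074, limma adjusted p 5.14e-06). BTG2, an antiproliferative gene, had 1.77 and 1.67 RPKM in T24T and 0.654 and 0.712 RPKM in UMUC3. CDKN1A ran the other way. It had 13.4 and 13.9 RPKM in T24T and 18.6 and 18.6 RPKM in UMUC3, and its log2 difference was -0.42 (SE 0.073, limma adjusted p 0.00194). PLK3, another polo-like kinase, stood at 1.43 and 1.23 RPKM in T24T and 1.78 and 1.64 RPKM in UMUC3 (-0.22, limma adjusted p 0.0792), and it was called with equal medians (-0.31, limma adjusted p 0.0221).

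Among the cell death genes, TP53INP1, which promotes p53-dependent death and autophagy, was far higher in T24T, with 239 reads in T24T BCUC-1 and 316 in T24T vector, against 2 reads in UMUC3 BCUC-1 and 2 in UMUC3 vector. On summed reads scaled to depth the ratio of T24T to UMUC3 was 145, with a wide counting interval of 56.1 to 532. In RPKM the gene had 1.79 and 2.35 in T24T and 0.0155 and 0.0133 in UMUC3. FAS, a death receptor, was higher in UMUC3, with 3.78 and 3.67 RPKM in T24T and 6.97 and 7.52 RPKM in UMUC3 (log2 difference -0.80, limma adjusted p 0.000326). TNFRSF10B, the TRAIL receptor DR5, was higher in T24T, with 11.2 and 11.1 RPKM against 8.26 and 8.11 RPKM in UMUC3 (0.41, limma adjusted p 0.00348). AEN, an exonuclease that acts in apoptosis, had 12.9 and 12.0 RPKM in T24T and 7.94 and 7.41 RPKM in UMUC3 (0.63, limma adjusted p 0.000444). BAX, the pore-forming effector of mitochondrial apoptosis, and TP53I3, a quinone oxidoreductase, differed by 0.29 (limma adjusted p 0.0177) and 0.30 (limma adjusted p 0.0410), and neither passed with equal medians (adjusted p 0.145 and 0.141). BBC3, which encodes the BH3-only protein PUMA, had 0.453 and 0.518 RPKM in T24T and 0.567 and 0.475 RPKM in UMUC3, and the lines overlapped. PHLDA3, an inhibitor of AKT signalling, had 0 reads in both T24T libraries and 3 and 2 reads in the UMUC3 libraries.

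Of the repair genes, DDB2 alone was called between the lines, as higher in T24T. DDB2, the damage sensor of nucleotide excision repair, had 5.90 and 6.70 RPKM in T24T and 4.89 and 4.18 RPKM in UMUC3 (log2 difference 0.40, limma adjusted p 0.0167). That call was lost without T24T BCUC-1, T24T vector or UMUC3 vector (limma adjusted p 0.0631, 0.144 and 0.0845). XPC, which recognises damage in the same pathway, had 8.69 and 9.52 RPKM in T24T and 9.10 and 8.23 RPKM in UMUC3. RRM2B, the p53-inducible ribonucleotide reductase subunit, had 7.45 and 7.79 RPKM in T24T and 6.40 and 7.29 RPKM in UMUC3. Neither XPC (limma adjusted p 0.559) nor RRM2B (0.194) was called, and the XPC libraries overlapped between the lines.

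Metabolic and stress genes included large gaps in both directions. GDF15, a secreted cytokine of the TGF-beta superfamily, had 358 reads in T24T BCUC-1 and 437 in T24T vector, against 3 in UMUC3 BCUC-1 and 2 in UMUC3 vector. These were 7.27 and 8.84 RPKM in T24T and 0.0632 and 0.0362 RPKM in UMUC3, and on summed reads T24T had 166 times the UMUC3 level (counting interval 70.7 to 511). FDXR, the mitochondrial ferredoxin reductase, had 10.4 and 12.2 RPKM in T24T and 1.41 and 1.248 RPKM in UMUC3, which is 8.48 times higher in T24T (log2 difference 2.39, SE 0.11, limma adjusted p 6.59e-06). TIGAR, a regulator of glycolysis, had 11.1 and 10.5 RPKM in T24T and 6.49 and 6.47 RPKM in UMUC3 (0.66, limma adjusted p 0.000467). The sestrins, which inhibit mTORC1, did not move together. SESN2 was 3.91 times higher in UMUC3, with 1.42 and 1.41 RPKM in T24T and 5.29 and 5.79 RPKM in UMUC3 (log2 difference -1.44, limma adjusted p 3.44e-05). SESN1 had 0.952 and 1.15 RPKM in T24T and 1.02 and 0.825 RPKM in UMUC3, and the lines overlapped (limma adjusted p 0.479). ZMAT3, an RNA-binding zinc finger gene, also overlapped, at 2.04 and 2.26 RPKM in T24T and 1.92 and 2.30 RPKM in UMUC3. SPATA18, a mitochondrial quality control gene, had 6 and 7 reads in T24T and 0 in both UMUC3 libraries, at least 4.51-fold higher in T24T when UMUC3 is set to the limit of 3 reads over both libraries.

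The D cyclins and their kinases were higher in UMUC3 or did not differ. CCND1 was the most abundant of all 34 genes in each library, with 144 RPKM in T24T BCUC-1 and 139 in T24T vector, against 203 in UMUC3 BCUC-1 and 212 in UMUC3 vector (log2 difference -0.55, SE 0.065, limma adjusted p 0.000351). CCND2 had 20 and 29 reads in T24T and 1065 and 1225 reads in UMUC3, and on summed reads UMUC3 had 44.9 times the T24T level (33.8 to 60.8). In RPKM these were 0.118 and 0.171 in T24T and 6.55 and 6.46 in UMUC3, so CCND2 stayed far below CCND1 in both lines. CCND3 had 2.92 and 3.04 RPKM in T24T and 2.96 and 2.65 RPKM in UMUC3, with overlapping lines (limma adjusted p 0.593). CDK4 had 28.6 and 26.6 RPKM in T24T and 66.7 and 66.6 RPKM in UMUC3, 2.41 times higher in UMUC3 (log2 difference -1.24, SE 0.067, limma adjusted p 1.16e-05). On 43.2% of its exonic bases CDK4 overlaps TSPAN31 on the opposite strand. TSPAN31 had 865 and 839 reads in T24T and 1960 and 2009 reads in UMUC3, and whether the counting used strand is not given, so reads of the pair may not be separate. CDK6 had 15.2 and 15.9 RPKM in T24T and 17.8 and 20.9 RPKM in UMUC3 (-0.29, limma adjusted p 0.0138), and without the UMUC3 vector library it was not called (-0.18, limma adjusted p 0.0594), nor without T24T BCUC-1 (0.187) or T24T vector (0.127).

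Of the other CDK inhibitors, CDKN2D, the INK4 member p19, was higher in T24T. It had 7.02 and 7.25 RPKM in T24T and 3.19 and 2.59 RPKM in UMUC3 (log2 difference 1.07, SE 0.11, limma adjusted p 0.000154). CDKN2C, the INK4 member p18, was higher in UMUC3, with 18.96 and 19.2 RPKM in T24T and 26.0 and 23.0 RPKM in UMUC3 (-0.34, limma adjusted p 0.00729), and it was not called without T24T BCUC-1 (limma adjusted p 0.0866) or T24T vector (0.0789). CDKN1B, which encodes p27, had 16.8 and 17.0 RPKM in T24T and 14.5 and 15.0 RPKM in UMUC3, and its difference of 0.18 missed the threshold (limma adjusted p 0.0572). CDKN1C, which encodes p57, had 5 to 7 reads in every library.

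**Figure D2:**
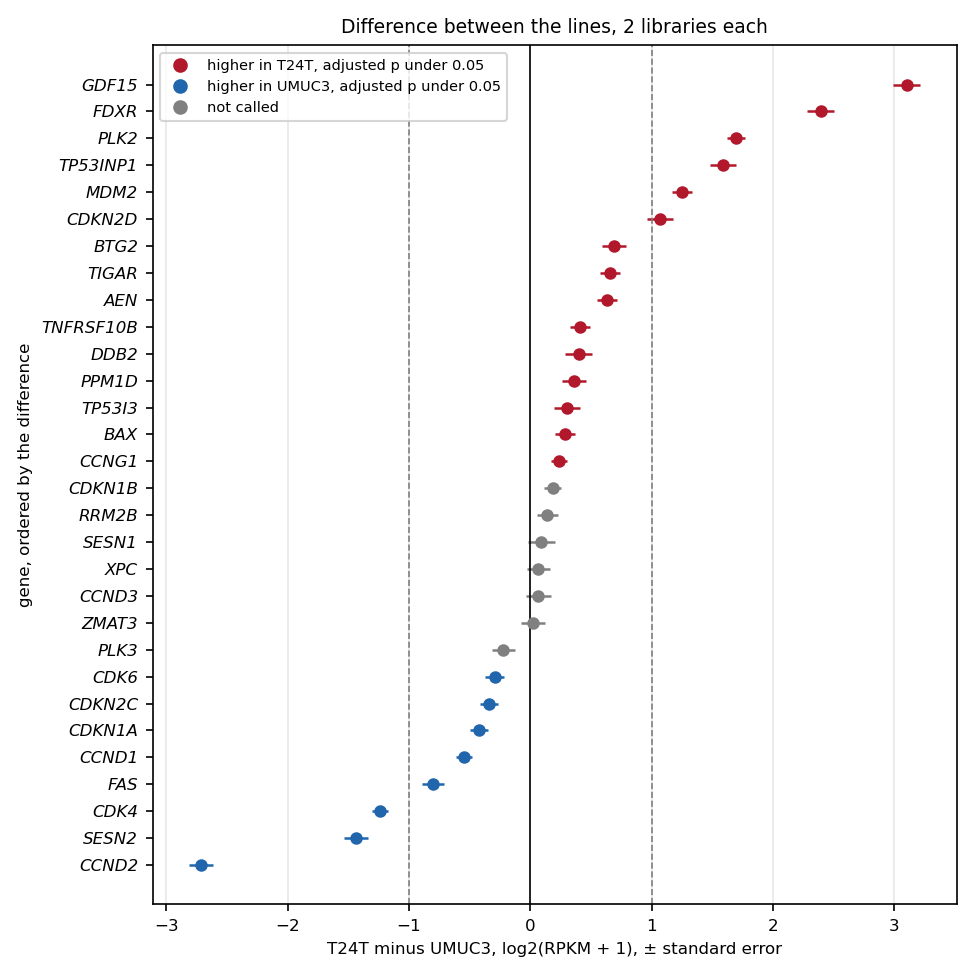
Difference of T24T minus UMUC3 on log2(RPKM + 1) for the 30 tested genes, ordered by size, with standard errors from limma (dashed lines mark 2-fold). GDF15 at 3.10, FDXR at 2.39 and PLK2 at 1.70 stand at the T24T end, and CDK4 at -1.24, SESN2 at -1.44 and CCND2 at -2.71 at the UMUC3 end. GDF15 and CCND2 passed the floor through 1 line only. This scale shrinks differences of genes at low levels, and TP53INP1 stands at 1.59, below PLK2, with an RPKM ratio of 144.

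The genes around this set were read from 2 lists. Of 42 other p53 pathway genes, 36 were tested, 14 were higher in T24T (38.9%) and 12 in UMUC3 (33.3%), near the background of 40.8% and 29.6%. Of the 36, 6 passed the floor through 1 line only, SFN among them. MDM4, the partner of MDM2, had 3.15 and 3.56 RPKM in T24T and 1.18 and 1.16 RPKM in UMUC3 (log2 difference 1.01, limma adjusted p 0.000170). SFN, KITLG and GADD45A were among the list members with the widest gaps. SFN, which encodes the 14-3-3 sigma checkpoint protein, had 33.1 and 33.1 RPKM in T24T and 0.09999 and 0.114 RPKM in UMUC3. The KIT ligand gene KITLG (log2 difference -2.34) and the growth arrest gene GADD45A (-1.61) were higher in UMUC3.

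Of 28 other G1 genes, all were tested, 10 were higher in T24T (35.7%) and 8 in UMUC3 (28.6%), also near the background. CDKN2A, CDKN2B and CABLES1 passed the floor through 1 line only. The INK4 gene CDKN2A had 611 and 664 reads in T24T and 1 and 0 reads in UMUC3, and its neighbour CDKN2B had 130 and 131 reads in T24T and 0 in both UMUC3 libraries, at least 90.6-fold higher in T24T at the limit of 3 reads over both UMUC3 libraries. Calls of CDKN2A and CDKN2B carry no weight, since they had to differ. Of the 4 INK4 genes that leaves CDKN2D, higher in T24T, and CDKN2C, higher in UMUC3. RB1, the retinoblastoma gene, had 15.3 and 15.2 RPKM in T24T and 15.3 and 17.6 RPKM in UMUC3 (limma adjusted p 0.300). CCNE1, cyclin E1, had 12.1 and 10.9 RPKM in T24T and 10.4 and 9.44 RPKM in UMUC3 (limma adjusted p 0.0568). E2F4 (log2 difference -1.07) and MYC (-0.64) were higher in UMUC3 and CDK7 (0.95) in T24T.

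BCUC-1 was asked about next, first over both lines. With the line as a block, 0.0% of 15415 genes were called by limma, and 0 of the 30 tested genes of this set. Their smallest limma adjusted p was 0.998, and 0 of the 30 had an unadjusted p under 0.05, against 652 of all genes tested. With limma-voom on the recovered reads 3 genes were called, none of them in this set. The combined log2 changes ran from -0.14 at CDK6 and ZMAT3 to 0.10 at PLK3. Whether the lines responded differently could not be tested, since no residual degree of freedom is left.

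In T24T the BCUC-1 and vector libraries differed little in these genes. Of 29 genes with 100 reads or more over both libraries, 1 had a log2 ratio of at least 0.32 in size, which is 25% higher or the same fold lower, against a background of 5.85% of 14120 genes (4.6% lower). None reached 2-fold (background 0.0%). That gene was TP53INP1, with 1.79 RPKM in T24T BCUC-1 and 2.35 in T24T vector, a BCUC-1 over vector ratio of 0.759 (95% counting interval 0.639 to 0.901). GDF15 had a ratio of 0.822 (0.713 to 0.948), FDXR of 0.852 (0.778 to 0.933) and DDB2 of 0.881 (0.794 to 0.978). MDM2 (0.960), XPC (0.913) and CDK6 (0.955) also had intervals below 1, while those of PLK2 (1.06), AEN (1.07), CCND1 (1.04) and CDK4 (1.08) lay above 1. Intervals without 1 thus numbered 11 of 29, against a background of 16.4% (5.67% above 1 and 10.7% below), and they narrow as reads increase, so the share also depends on abundance. CDKN1A, with 964 reads in T24T BCUC-1 and 1001 in T24T vector, had a ratio of 0.967 (0.884 to 1.06). Of the 29 genes 19 had ratios under 1 and 10 over 1, with a median log2 ratio of -0.049, and of all genes 57.5% were under 1, with a median of -0.020. With equal medians 16 were under 1 and 13 over 1. TP53INP1, GDF15 and FDXR, lower in T24T BCUC-1 than in T24T vector, remained above both UMUC3 libraries.

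In UMUC3 none of 27 genes with that many reads passed 0.32, against a background of 11.2% of 13795 genes, and none reached 2-fold (background 0.0797%). CDK6 had 17.8 RPKM in UMUC3 BCUC-1 and 20.9 in UMUC3 vector, a ratio of 0.849 (0.819 to 0.881). ZMAT3 (0.834), MDM2 (0.878), RRM2B (0.878), PLK2 (0.922) and CCND1 (0.959) had intervals below 1 as well. Above 1 were those of TP53I3 (1.198, interval 1.02 to 1.41), DDB2 (1.17), CDKN2C (1.13), BAX (1.11) and XPC (1.11). Intervals without 1 numbered 11 of 27, against a background of 37.2% (21.8% above 1 and 15.4% below). SESN1 and CDKN2D had the highest ratios, 1.24 and 1.23, with intervals that included 1. CDKN1A had a ratio of 0.996 (0.924 to 1.07), and CCND2 1.01 (0.933 to 1.10). GDF15 and TP53INP1, at 2 or 3 reads in each UMUC3 library, allowed no reading. Ratios over 1 numbered 16 and ratios under 1 numbered 11, with a median log2 ratio of 0.017. Over all genes 57.3% were over 1, with a median of 0.034. With equal medians the tally turned to 11 over 1 and 16 under 1, with a median of -0.028, since PPM1D, TNFRSF10B, TIGAR, CCND2 and CDK4 changed sign.

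**Figure D3:**
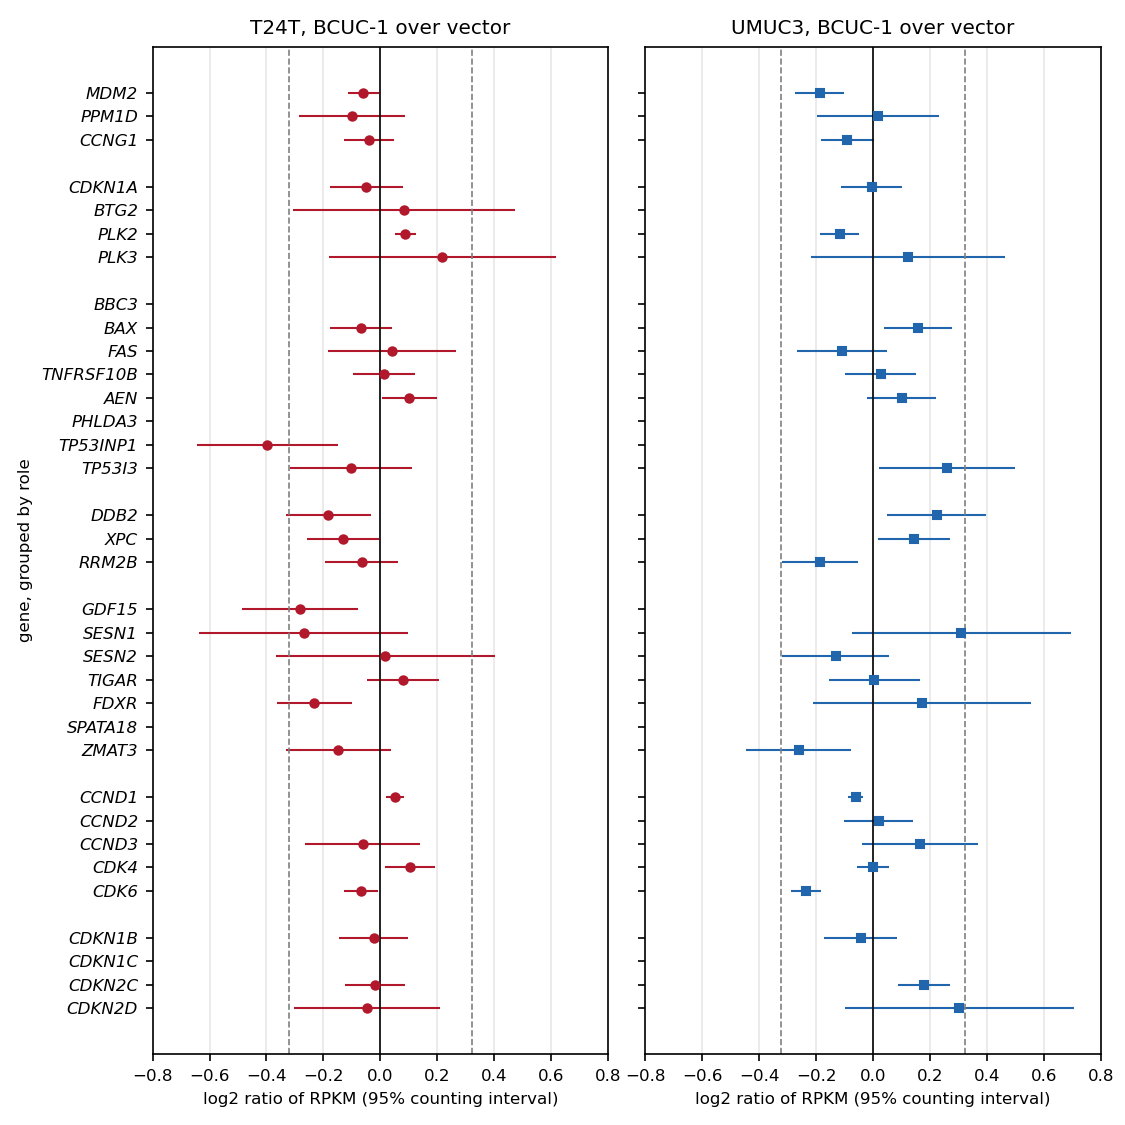
Log2 ratio of BCUC-1 over vector with its 95% counting interval in T24T (left) and UMUC3 (right), for genes with 100 or more reads over both libraries (dashed lines mark a log2 ratio of 0.32 in size). TP53INP1 in T24T is the single point outside the dashed lines.

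Base composition moved with the UMUC3 ratios. Across the 27 genes the log2 ratio had a Spearman rho of 0.611 with the GC content of the longest transcript, and across all 11831 genes with a GC value it was 0.597. In T24T the values were 0.0158 over 29 genes and 0.0176 over all genes. These points share their libraries, and no p is given. AT-rich genes of the set, such as CDK6 (39.5% GC), ZMAT3 (39.5%), RRM2B (36.4%) and MDM2 (41.9%), had UMUC3 ratios under 1. GC-rich genes such as CDKN2D (61.3%), TP53I3 (58.4%) and CDKN2C (58.1%) had ratios over 1. The GC-rich genes SESN2 (59.5%) and CDKN1A (58.1%) had ratios under 1 (0.913 and 0.996), with intervals that included 1. With the trend removed the UMUC3 log2 ratios were -0.15 at CDK6, -0.16 at ZMAT3, 0.0036 at RRM2B, -0.15 at MDM2, 0.11 at CDKN2D, 0.12 at TP53I3 and 0.038 at CDKN2C. SESN1, at 43.4% GC, then stood at 0.33, just past the threshold of 0.32, and SESN2 at -0.29. Of the 27 ratios, 12 were then over 1 and 15 under 1, against 16 and 11 as reported.

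**Figure D4:**
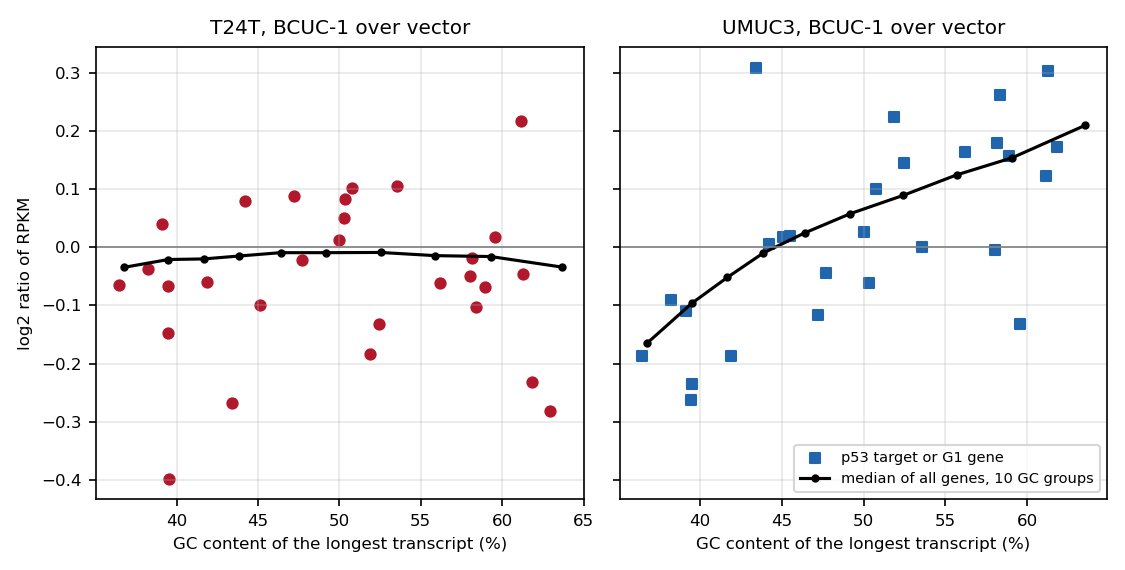
Log2 ratio of BCUC-1 over vector against GC content in T24T (left) and UMUC3 (right), for genes of the set with 100 or more reads over both libraries (points) and as the median of all genes in 10 GC groups (line). The UMUC3 line runs between -0.16 and 0.21, and the T24T line between -0.034 and -0.0089.

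Both lines could be compared for 26 genes that had 100 reads or more in each pair. The sign of the ratio was shared by 12 of the 26 (46.2%), and by 49.0% of 12771 genes overall. In both lines 7 genes were lower and 5 higher. Among the lower were MDM2, with ratios of 0.960 in T24T and 0.878 in UMUC3, and CDK6, with 0.955 and 0.849. The T24T intervals of MDM2 and CDK6 reached up to 0.996 and 0.9955, close to 1. Their T24T log2 ratios were -0.017 and -0.024 with equal medians, and -0.045 and -0.050 with the GC trend removed. Whether their T24T intervals still excluded 1 under those settings was not tested. DDB2 and XPC, both of nucleotide excision repair, were lower with BCUC-1 in T24T and higher in UMUC3, with intervals that excluded 1 in each line as deposited. Those calls did not last under other scalings. With equal medians the XPC interval included 1 in T24T (0.861 to 1.026) and in UMUC3 (0.981 to 1.17), and that of DDB2 in T24T (0.817 to 1.01). With the GC trend removed the XPC interval again included 1 in T24T (0.841 to 1.002) and UMUC3 (0.946 to 1.13), and that of DDB2 in UMUC3 (0.977 to 1.24). On 23.8% of its exonic bases XPC overlaps AC093495.4 on the opposite strand.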

How the data were processed

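RNA was measured in 4 libraries, and each column of the table was assigned to its group by the sample title. The authors deposited 1 table of RPKM per gene and library, scaled to exonic length and to the assigned reads of each library. A Length column in bases, of unit "other" and deposited beside it, is that exonic length, per the file headers. The submitters' processing notes list Bowtie 0.12.2. For its role, the counter, the build, the annotation and the use of strand the sources used here give nothing, so reads of overlapping genes may not be separate. The values come from 1 culture per group, so p-values do not measure the spread between replicate cultures. Most of the spread in the limma tests was drawn from the other genes.

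Multiplied by length, RPKM came in equal steps in each library, whole for 100% of genes within 0.001 reads, which gave reads and depths (23588847 in T24T BCUC-1, 23679229 in T24T vector, 22730112 in UMUC3 BCUC-1 and 26497894 in UMUC3 vector). The table's positions matched GENCODE 29 on GRCh38 at a start or end for 96.5% of 22720 symbols found once. GC content was taken from each gene's longest GENCODE transcript, for 69.1% of genes and all 34 members. That share is below the usual need for a check over all genes, but no member lacked a value.

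BCUC-1 and line effects were fitted over the whole table by limma 3.58.1 (R 4.3.3; trend on intensity; log2(RPKM + 1); genes reaching 1 RPKM in 2 libraries). Tests were two-sided, and 0.05 was the limit for Benjamini-Hochberg adjusted p. Within a line no test was possible. Ratios carry exact (Clopper-Pearson) 95% intervals from the recovered reads, for counting error only. The fit was checked on simulated counts with known changes. A gene with 0 reads may have up to 3. All 34 members are accounted for, those with at least 100 reads in a library by their values. From the other lists MDM4, RB1, CCNE1, CDKN2A, the 4 widest line differences of each list and the widest ratios past a log2 size of 0.32 were to be named, and some of these genes are not reported here. The members, lists and rules were chosen with earlier results of these data known.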

Additional observations from a re-analysis of the deposited data

Results flagged for a closer look

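PLK2, DDB2, XPC and CCND1 had ratios of BCUC-1 over vector that lay on opposite sides of 1 in the 2 lines, with counting intervals that excluded 1 in each. The difference between the lines was not tested, since each line has 1 library per group. How many of all genes met the same rule was not counted, so these genes are not shown to stand out. Over all genes, intervals without 1 made up 16.4% in T24T and 37.2% in UMUC3, and the sign was shared by 49.0%. Intervals narrow as reads increase, so genes with many reads, such as CCND1 and PLK2, can meet the rule with small changes. The log2 ratios were 0.088 in T24T and -0.12 in UMUC3 at PLK2, -0.18 and 0.22 at DDB2, -0.13 and 0.14 at XPC, and 0.051 and -0.061 at CCND1. With the trend on GC content removed they were 0.094 and -0.15 at PLK2, -0.17 and 0.14 at DDB2, -0.12 and 0.047 at XPC, and 0.058 and -0.13 at CCND1. With equal medians or the GC trend removed, the intervals of PLK2 and CCND1 still excluded 1 in each line, while those of XPC included 1 in both lines under either setting, and those of DDB2 in T24T with equal medians and in UMUC3 with the GC trend removed. The part of culture, library and GC content in these values was not tested.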

How the results depend on the processing

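The labels carry no replicate numbers, and the line was the only block. Without the line block 0 genes were called for BCUC-1. Over both lines, the count of genes called for BCUC-1 was 60 with genes required to reach 5 RPKM, 1 when 0.1 was the pseudocount, 3 with limma-voom and 4 with equal medians, against 0 in the fit reported. No gene of the set was called under any of the settings run. Between the lines, 6780 genes were called at a floor of 5 RPKM, where fewer genes were tested, and 20 of the 23 tested members. Leaving out each library in turn gave 7797 to 10296 genes and 16 to 24 members. Calls at least 2-fold in size numbered 8 to 11 members under the settings run, a rule chosen after seeing the data. Calls higher in T24T made up 58.0% of all calls, 48.7% with equal medians and 48.0% with limma-voom. BAX, CCNG1 and TP53I3 lost their calls with equal medians and limma-voom, and, like DDB2, PPM1D, CDK6 and CDKN2C, with no filter and without either T24T library. DDB2, CDK6 and TP53I3 also lost them without the UMUC3 vector library. PLK3 gained a call with equal medians and limma-voom, and CDKN1B without either UMUC3 library or the plasmid term. Uncalled line differences changed sign for XPC (-0.084 with limma-voom, -0.066 with equal medians), RRM2B (-0.0028 with limma-voom), CCND3 (-0.069 and -0.044) and ZMAT3 (-0.13 and -0.079, and -0.067 to 0.11 when each library was left out in turn, below 0 without T24T vector, -0.029, or UMUC3 BCUC-1).

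Within T24T, genes past a log2 ratio of 0.32 in size numbered 2721 at 20 reads, 106 at 500 reads and 202 on log2(RPKM + 1), against 826, and members 2, with CCND2 added, at 20 reads and 0 on log2(RPKM + 1). Within UMUC3 they numbered 3512, 544 and 583, and 671 with the GC trend removed, against 1542, and members 1, SESN1, with the GC trend removed. The UMUC3 median log2 ratio of the members was -0.028 with equal medians, -0.033 with TMM factors and -0.0033 with the GC trend removed. The causes of these changes were not tested, beyond the fewer reads or genes admitted.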

Other observations

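Among the 70 other p53 pathway and G1 genes, a log2 ratio of 0.32 in size between BCUC-1 and vector was passed in T24T by 2 of 37 p53 pathway genes and in UMUC3 by 3 of 36. The background was 5.85% in T24T and 11.2% in UMUC3. None of the G1 list passed it, of 28 in T24T and 26 in UMUC3. ACER2, an alkaline ceramidase that passed it as lower, had 54 reads with BCUC-1 and 70 with vector in T24T, and its 95% counting interval included 1. In UMUC3, PIDD1, the scaffold of the PIDDosome that activates caspase-2, had 1.35 RPKM with BCUC-1 and 0.900 with vector, a ratio of 1.499 (counting interval 1.195 to 1.88). With the GC trend removed its log2 ratio was 0.35. NINJ1 (ratio 0.772) and the glutaminase gene GLS2 (1.28) also passed 0.32 in UMUC3, with intervals that included 1.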
